A study of Mus musculus with 12 samples.

Results

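The HoxD cluster is a row of 9 protein-coding genes on mouse chromosome 2 that were taken by name, in their order on the chromosome, from all 55401 genes of the count files. From the end nearest Evx2 to the end nearest Mtx2 these are Hoxd13, Hoxd12, Hoxd11, Hoxd10, Hoxd9, Hoxd8, Hoxd4, Hoxd3 and Hoxd1. They lie on the plus strand within chr2:74668310-74765142 (GRCm38), a span of 96.8 kb. RNA was sequenced from 3 lines of mouse totipotent potential stem (TPS) cells and 3 lines of mouse extended pluripotent stem (EPS) cells, each line as 2 technical replicates, which gave 12 libraries. TPS cells were kept in a medium that the labels call VCED. The study's methods do not use that name, and for the TPS medium they list valproic acid (a histone deacetylase inhibitor), CHIR-99021 (a GSK3 inhibitor), EPZ004777 (a DOT1L inhibitor) and CD1530 (an agonist of the retinoic acid receptor RARγ). EPS cells were kept in LCDM medium. By the labels both cell types grew on feeder cells, which the study's methods describe as inactivated mouse embryonic fibroblasts. The embryo or parent line of each sequenced line, and whether TPS and EPS lines of the same number are related, are not given in the sources used here. P-values therefore measure only the spread between these lines.

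Hox genes encode homeodomain transcription factors that give cells a position along the body axis. Within a cluster the genes at the Hoxd1 end are as a rule switched on earlier and closer to the head, and those at the Hoxd13 end later and closer to the tail, an order known as colinearity. The HoxD genes at the Hoxd13 end also pattern the limbs, digits and genital bud, and in pluripotent cells the clusters are largely silent under Polycomb repression.

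The libraries held 13676051 to 21821707 counts, and the 6 lines 29877215 to 38466294 after technical replicates were summed. The labels were checked against marker lists: all 9 genes of the 2-cell and totipotency list were higher in TPS cells, Zscan4c among them with 89.3 ± 16.7 CPM, the counts scaled to library size, (SD, n = 3 lines) against 0.0196 ± 0.034, and 6 of 9 pluripotency genes were lower, where 14.4% and 7.34% of all tested genes were called higher and lower. The 2-cell genes were under the filter's cutoff in every EPS line and could be tested only by being higher in TPS lines, so their levels, not the count of calls, bear on the labels. The technical replicates of EPS line 3 differed most, their counts over genes giving a chi-square of 24.3 for each degree of freedom, where 1 would be sampling noise. EPS line 1 followed with 10.4, and the other 4 pairs lay between 2.68 and 4.06.

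The promoters of the 4 HoxD genes with enough counts to test are shown because the data bear on these genes, and because the TPS medium holds a retinoid receptor agonist. The RefSeq promoter table (GRCm38.p6) gave 10 windows for the 9 genes, each from 250 bases before to 50 bases after the annotated start, 5′ to 3′ on the plus strand. Capitals mark the retinoid receptor half-site AGGTCA, the GC box GGGCGG and the CCAAT box CCAAT, each on either strand. Hoxd13 is at chr2:74667975-74668274, Hoxd9 at chr2:74697513-74697812, Hoxd8 at chr2:74704365-74704664 and Hoxd1 at chr2:74762730-74763029.
Hoxd13: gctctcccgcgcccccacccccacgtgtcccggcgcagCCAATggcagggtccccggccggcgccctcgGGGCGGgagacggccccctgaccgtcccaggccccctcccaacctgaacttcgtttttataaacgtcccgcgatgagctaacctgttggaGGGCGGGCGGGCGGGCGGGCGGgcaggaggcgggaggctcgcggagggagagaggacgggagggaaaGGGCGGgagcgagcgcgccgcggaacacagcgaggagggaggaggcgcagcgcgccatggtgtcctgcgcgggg
Hoxd9: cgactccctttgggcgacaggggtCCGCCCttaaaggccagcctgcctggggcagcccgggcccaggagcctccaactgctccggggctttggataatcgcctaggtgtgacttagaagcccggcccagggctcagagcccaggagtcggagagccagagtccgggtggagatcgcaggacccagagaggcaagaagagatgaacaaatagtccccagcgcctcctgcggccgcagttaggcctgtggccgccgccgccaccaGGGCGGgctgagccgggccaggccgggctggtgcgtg
Hoxd8: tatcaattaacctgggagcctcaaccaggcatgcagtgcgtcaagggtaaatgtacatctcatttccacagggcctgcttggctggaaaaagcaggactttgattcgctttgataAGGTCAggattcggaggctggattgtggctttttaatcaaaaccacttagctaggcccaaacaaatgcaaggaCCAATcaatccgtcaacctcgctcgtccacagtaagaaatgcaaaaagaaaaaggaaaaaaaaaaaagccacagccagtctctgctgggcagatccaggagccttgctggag
Hoxd1: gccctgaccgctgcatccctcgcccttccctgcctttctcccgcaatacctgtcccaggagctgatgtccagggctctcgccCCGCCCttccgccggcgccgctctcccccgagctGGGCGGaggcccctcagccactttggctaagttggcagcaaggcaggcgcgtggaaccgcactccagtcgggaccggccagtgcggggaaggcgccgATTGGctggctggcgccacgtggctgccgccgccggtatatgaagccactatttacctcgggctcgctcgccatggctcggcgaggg

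The 4 windows differed in base composition. The Hoxd13 window held 37 CpG dinucleotides, Hoxd1 29, Hoxd9 20 and Hoxd8 6, against a median of 7 over 32851 promoter windows. GGGCGG occurred 7 times in the Hoxd13 window, where 5 of the matches overlap in a run, and 2 times each in the Hoxd9 and Hoxd1 windows, and 35.7% of all windows held it. AGGTCA was found in the windows of Hoxd10, Hoxd8, Hoxd4 and Hoxd3, and in 16.3% of all windows. TTTATG, the core bound by Cdx factors, was found for Hoxd11, Hoxd4 and Hoxd3, and in 11.9% of all windows. CCAAT was present for 7 of the 9 genes and in 37.4% of all windows. These matches describe letters in the window and do not show binding.

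HoxD RNA was low in both cell types and higher in TPS cells for the genes Hoxd9, Hoxd8 and Hoxd1. Their mean levels were 1.75 to 4.24 CPM in TPS lines against 0.262 to 0.809 CPM in EPS lines, and each rose between 5.22-fold and 7.37-fold. Hoxd13 had at least 1 count in every library of both groups and did not pass the test. Hoxd12, Hoxd11, Hoxd10, Hoxd4 and Hoxd3 did not pass the filter on low counts and were not tested in the main comparison. In bulk RNA, fewer cells that hold a transcript and less of it in each cell cannot be told apart.

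**Figure D1:**
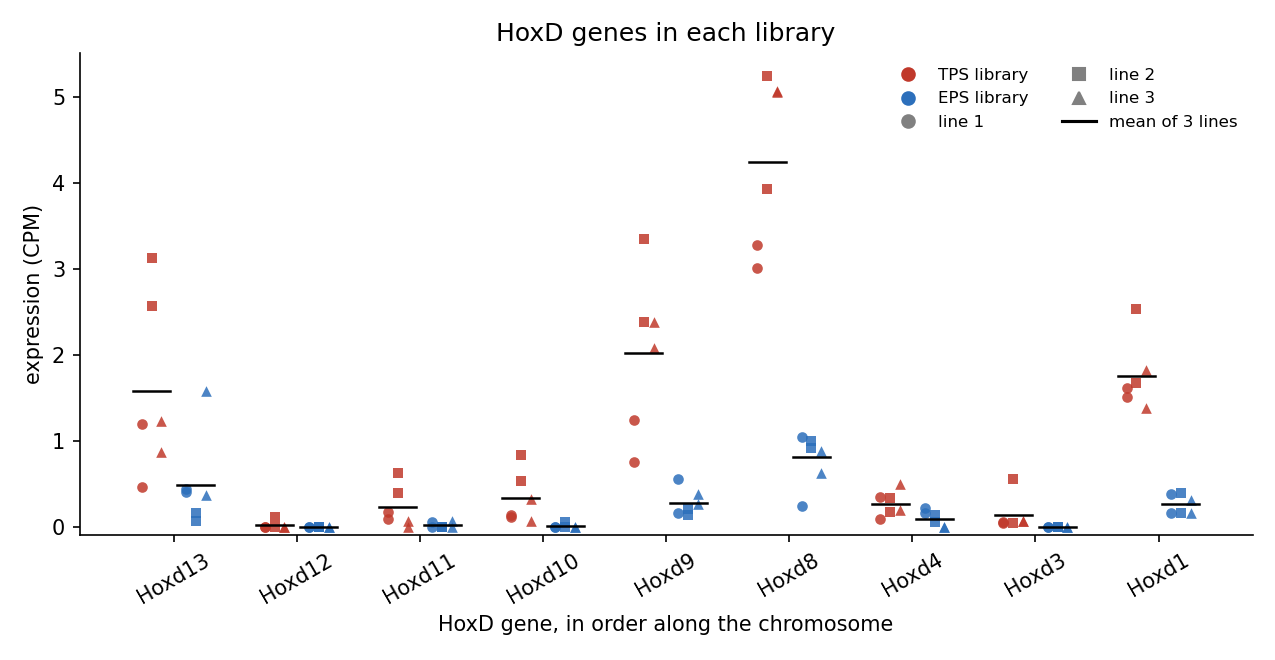
Expression in CPM (vertical axis, linear) of the 9 HoxD genes in cluster order, with 1 point for each of the 12 libraries, red for TPS and blue for EPS, marker shape for the line and a bar for the mean of 3 lines. Hoxd9, Hoxd8 and Hoxd1 stand apart by group, and for Hoxd13 an EPS library at 1.58 CPM lies among the TPS libraries.

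Of the 9 genes 4 passed the filter on low counts, and by edgeR's quasi-likelihood test 3 of them were higher in TPS cells and 0 were lower at an adjusted p of 0.05. Over all 17468 genes tested, 14.4% were called higher and 7.34% lower, which is 21.7% in either direction. Under the alternatives that changed the count, 4 HoxD genes were called higher. With no filter on low counts these were 4 of 9 tested, Hoxd10 being added, and 10.1% of all genes were called higher. In the others they were 4 of 4 tested, Hoxd13 being added. The shares of all genes called higher were 26.2% with the 12 libraries as samples and 12.9% with technical replicate 2 alone. With EPS line 3 from technical replicate 2 only the share was 14.3%. With technical replicate 2 alone the added gene, Hoxd13, was under the cutoff in every EPS library and could be tested only by being higher in TPS cells. The median log2 fold change of the 4 tested genes was 2.56, against −0.0038 over all tested genes. Hoxd1 passed the filter through TPS lines alone, with fewer than 10 counts in every EPS line (the filter uses library totals without the TMM factor), so that it could be tested only by being higher there. Hoxd9 and Hoxd13 passed the count cutoff in 2 EPS lines each and Hoxd8 in all 3. Of the 4 tested genes, Hoxd9, Hoxd8 and Hoxd1 had all 3 TPS lines above the 3 EPS lines, as did 23.6% of all tested genes. Among the genes not tested this was also so for Hoxd10, Hoxd3 and Hoxd4, in Hoxd4 by no more than 0.2 against 0.196 CPM.

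Hoxd13, the last gene of the cluster and a determinant of digit form, had 0.874, 2.82 and 1.05 CPM in TPS lines 1 to 3 and 0.424, 0.118 and 0.91 CPM in EPS lines 1 to 3. The groups overlapped, since EPS line 3 was above TPS line 1. The fold change was 3.25 (log2 1.70 ± 0.756 SE), with an adjusted p of 0.145 by edgeR's quasi-likelihood test. The technical replicates of EPS line 3 held 25 and 7 counts, or 1.58 CPM (exact Poisson 95% interval 1.02 to 2.33) and 0.365 CPM (0.147 to 0.751). The other EPS libraries held 1 to 8 counts, and the TPS libraries 8 to 56. With EPS line 3 taken from its second technical replicate only, an alternative chosen after these values were seen, the log2 fold change was 2.40 and edgeR's adjusted p 0.0403. Without TPS line 2 the log2 fold change was 0.97 and edgeR's adjusted p 0.415, and without EPS line 3 these were 2.53 and 0.0796.

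Hoxd12, Hoxd11 and Hoxd10 follow Hoxd13 in the cluster and act with it in limb and posterior trunk. Hoxd12 had 2 counts in all, both in the first technical replicate of TPS line 2, and 0 in every EPS library, where the floor of 3 counts used here makes 0.156 to 0.239 CPM per library. Hoxd11 had 5, 20 and 1 counts in TPS lines 1 to 3 and 1, 0 and 1 in the EPS lines. Hoxd10 had 5, 26 and 6 counts in TPS lines and 0, 1 and 0 in EPS lines. For both Hoxd11 and Hoxd10 the second TPS line held most of the counts, and for Hoxd11 the groups overlapped. Over all counts, the TPS to EPS ratio relative to library size was 11.8 for Hoxd11 (exact 95% interval 2.95 to 102) and 33.5 for Hoxd10 (5.65 to 1360). Such intervals take in only the error of counting, and because the libraries carried no molecular identifiers, several reads may come from the same molecule.

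Hoxd9, which acts in the posterior trunk and the upper limb, had 1.02, 2.82 and 2.22 CPM in TPS lines and 0.326, 0.176 and 0.313 CPM in EPS lines. The means were 2.02 ± 0.916 and 0.272 ± 0.0829 CPM (SD, n = 3). Every TPS library, at 13 to 60 counts, was above every EPS library, at 2 to 7. It rose 7.37-fold (log2 2.88 ± 0.526 SE, edgeR adjusted p = 0.0102).

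Hoxd8, a gene of the middle of the cluster, had the highest mean of the HoxD RNAs in both groups, although in EPS line 3 Hoxd13 was above it. It had 3.15, 4.53 and 5.05 CPM in TPS lines and 0.718, 0.97 and 0.739 CPM in EPS lines, with means of 4.24 ± 0.984 and 0.809 ± 0.14 CPM (SD, n = 3). All 6 TPS libraries, at 52 to 94 counts, were above all 6 EPS libraries, at 3 to 19. The rise was 5.22-fold (log2 2.38 ± 0.351 SE, edgeR adjusted p = 0.00523). The technical replicates of EPS line 1 held 3 and 19 counts of it, so that its lowest EPS value rests on that library.

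Hoxd4 and Hoxd3 act in the neck and hindbrain region, and their annotated exons overlap. Hoxd4 had 8, 10 and 11 counts in TPS lines and 6, 3 and 0 in EPS lines, a ratio relative to library size of 2.92 (exact 95% interval 1.35 to 7.01), and its libraries overlapped between the groups. Hoxd3 had 2, 11 and 2 counts in TPS lines and 0 in the EPS lines, and 10 of its 15 counts came from the first technical replicate of TPS line 2. Its TPS mean was 0.133 CPM, and no fold is given against a group without a count. Hoxd4 shares 388 bp of exon with Hoxd3. Gm28230, an annotated gene that joins the pair, shares 1154 bp with Hoxd4 (39.1% of the exon bases of Hoxd4) and 2225 bp with Hoxd3 (53.1%). In both Hoxd4 and Hoxd3, 347 bp lies opposite the antisense gene Hoxd3os1. How the authors' counting treated such reads is not given in the sources used here, and the counts of Hoxd4 and Hoxd3 are uncertain for that reason. Hoxd13, Hoxd12, Hoxd9, Hoxd8 and Hoxd1 share no exon bases with another gene, and Hoxd11 and Hoxd10 share 455 and 104 bp with Gm28309, which had no count.

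Hoxd1, the gene at the head end of the cluster, had 1.55, 2.12 and 1.59 CPM in TPS lines and 0.294, 0.265 and 0.228 CPM in EPS lines. Its means were 1.75 ± 0.321 and 0.262 ± 0.0331 CPM (SD, n = 3). TPS libraries held 22 to 52 counts and EPS libraries 2 to 7, with no overlap, as was the case for the libraries of 16.7% of tested genes. It rose 6.63-fold (log2 2.73 ± 0.386 SE, edgeR adjusted p = 0.00461).

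**Figure D2:**
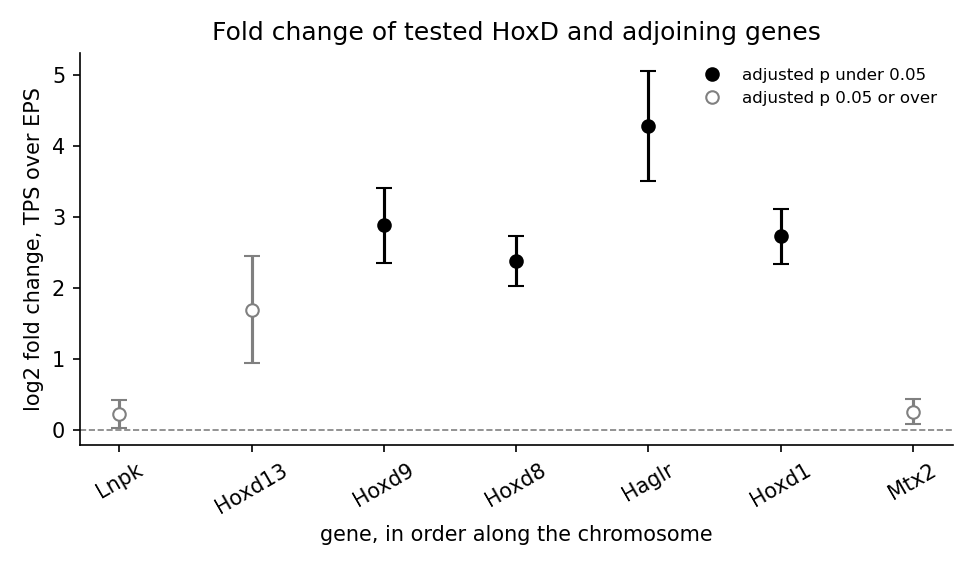
Log2 fold change of TPS over EPS (vertical axis) with its standard error for the tested HoxD genes, the noncoding gene Haglr and the flanking genes Lnpk and Mtx2, in chromosome order. Filled points passed edgeR's adjusted p of 0.05, and Hoxd13, Lnpk and Mtx2 did not.

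Levels were compared between genes per kilobase of annotated exon. In TPS lines the order was Hoxd8 at 1.55 ± 0.359 CPM per kb, Hoxd9 at 0.947 ± 0.429, Hoxd1 at 0.941 ± 0.173, Hoxd13 at 0.637 ± 0.434, Hoxd10 at 0.181 ± 0.165, Hoxd4 at 0.0913 ± 0.0255, Hoxd11 at 0.0534 ± 0.0612, Hoxd3 at 0.0317 ± 0.0315 and Hoxd12 at 0.00681 ± 0.0118 (SD, n = 3). The ranges of every pair of neighbours in that order overlapped. In EPS lines the order was Hoxd8 at 0.295 ± 0.0511 CPM per kb, Hoxd13 at 0.195 ± 0.161, Hoxd1 at 0.141 ± 0.0178 and Hoxd9 at 0.127 ± 0.0388. The ranges of these 4 overlapped from neighbour to neighbour, and there was a gap between Hoxd9 and Hoxd4, which came next at 0.0321 ± 0.0332 CPM per kb. The gap did not hold for Hoxd13, whose lowest EPS line, at 0.0474 CPM per kb, was under the highest of Hoxd4, at 0.0664. The place of Hoxd13 rested on the first technical replicate of EPS line 3: with that line taken from its second technical replicate only, Hoxd13 was at 0.122 ± 0.0654 CPM per kb, between Hoxd1 at 0.128 ± 0.0389 and Hoxd9 at 0.119 ± 0.0351. Hoxd10 and Hoxd11 followed at 0.0054 and 0.00483 CPM per kb, and Hoxd12 and Hoxd3 had no count in EPS cells. Along the chromosome the mean levels therefore did not run in one direction in either group, with both ends and the middle of the cluster above the genes between them.

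The sum of the 9 genes was 7.09, 14.1 and 10.5 CPM in TPS lines 1 to 3 and 1.99, 1.65 and 2.22 CPM in EPS lines 1 to 3. The means were 10.6 ± 3.51 and 1.95 ± 0.287 CPM (SD, n = 3), from 1160 and 195 counts. Hoxd9 to Hoxd13 made up 30.3% (exact binomial 95% interval 25.0 to 36.0), 48.9% (44.6 to 53.2) and 33.1% (28.1 to 38.5) of the HoxD counts in TPS lines 1 to 3. In EPS lines 1 to 3 they made up 39.3% (27.1 to 52.7), 19.6% (10.2 to 32.4) and 56.4% (44.7 to 67.6). The group means were 37.4% and 38.4%. The size of the highest EPS share depended on the same library, since the second technical replicate of EPS line 3 alone gave 44.4% (25.5 to 64.7), or 12 of 27 counts, which was still the highest EPS share and under that of TPS line 2.

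**Figure D3:**
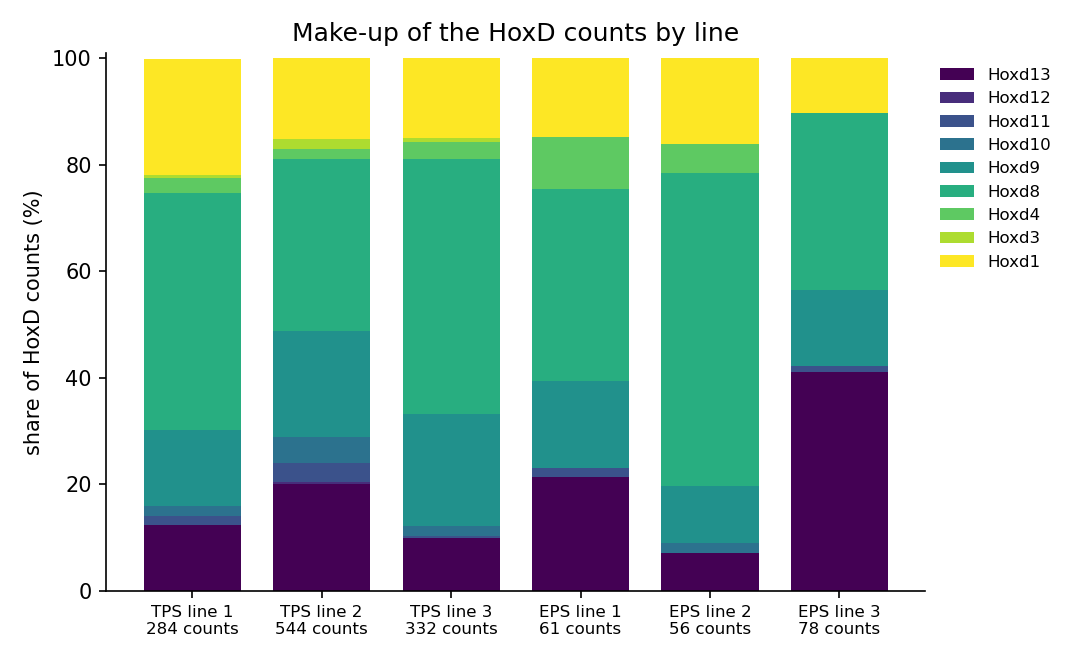
Share of HoxD counts held by each of the 9 genes (vertical axis, percent) in each of the 6 lines, with the number of HoxD counts under each bar. Hoxd8 is the largest part of every bar but that of EPS line 3, where Hoxd13 is.

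TPS line 2 differed from TPS lines 1 and 3 by gene. Its level over that of the other TPS lines was 2.97-fold for Hoxd13 (exact 95% interval 2.17 to 4.08), 6.18-fold for Hoxd11 (2.39 to 18.8), 4.38-fold for Hoxd10 (2.09 to 9.82) and 1.82-fold for Hoxd9 (1.38 to 2.39). It was 1.14-fold for Hoxd8 (0.937 to 1.38), 0.975-fold for Hoxd4 (0.405 to 2.20) and 1.36-fold for Hoxd1 (1.01 to 1.82). For Hoxd3 it was 5.09-fold (1.51 to 21.9), but 10 of the 11 counts of line 2 came from 1 library, and the other library of that line had 1 count, as did each library of TPS line 1 and TPS line 3. These are single lines compared on their reads, after the values were seen, and the difference between lines was not tested.

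Fibroblast markers, which could come from the feeder cells, moved with the same groups. All 18 markers on the list had a positive log2 fold change, 13 were called higher in TPS cells and 0 lower (14.4% and 7.34% over all tested genes), and their median log2 fold change was 2.10. Col1a1, a fibrillar collagen chain, had 1830 ± 494 CPM in TPS lines and 297 ± 190 in EPS lines (SD, n = 3). The summed level of the list was 7110, 4180 and 4230 CPM in TPS lines 1 to 3 and 534, 1680 and 1710 CPM in EPS lines 1 to 3. Of the 18 markers, only Fap was at 0 in a line, EPS line 1. TPS line 1, with the highest fibroblast sum, had the lowest HoxD sum of the TPS lines, while TPS line 2 had the highest HoxD sum and a fibroblast sum close to that of TPS line 3. Among EPS lines the fibroblast sum of line 1 was under that of lines 2 and 3, while its HoxD sum lay between theirs. The part of feeder RNA in the HoxD difference was not tested.

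**Figure D4:**
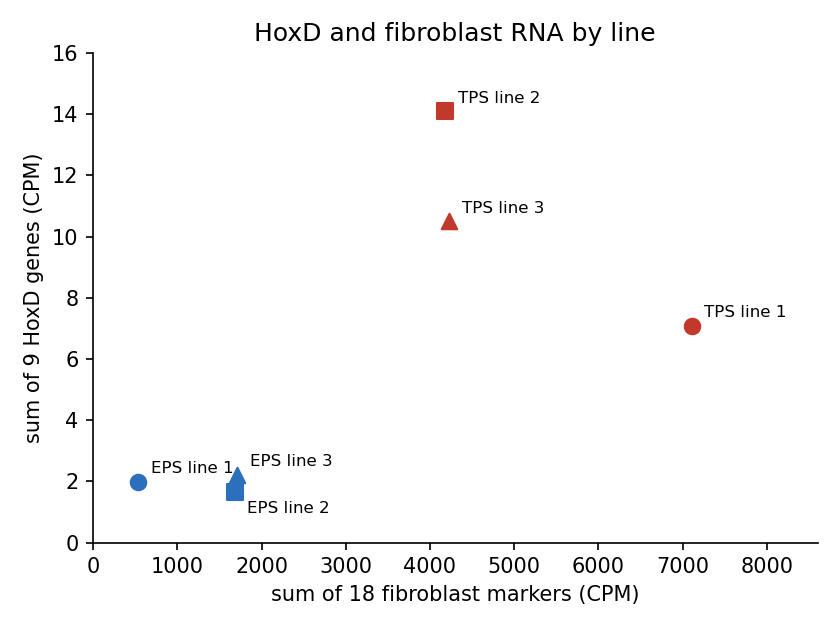
Sum of the 9 HoxD genes (vertical axis, CPM) against the sum of 18 fibroblast markers (horizontal axis, CPM), with 1 labelled point for each of the 6 lines, red for TPS and blue for EPS. The groups are apart on both axes, and within the TPS lines the point with the highest fibroblast sum is the lowest for HoxD.

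Other genes around the cluster were looked at next. Within 500 kb on either side lay 26 other annotated genes, of which 13 had a count and 5 were tested, 1 being called higher and 1 lower (14.4% and 7.34% over all tested genes). The gene called lower was Rps6-ps4, a processed pseudogene of a ribosomal protein gene (log2 −0.60 ± 0.178 SE, edgeR adjusted p = 0.0494), whose reads cannot be told from those of close copies with certainty. Haglr, a noncoding RNA that starts beside Hoxd1 on the minus strand, had 91 counts in TPS lines and 4 in EPS lines, with every TPS library above every EPS library. Like Hoxd1 it passed the filter through TPS lines alone and could be tested only by being higher there. It rose 19.5-fold (log2 4.28 ± 0.773 SE, edgeR adjusted p = 0.00981), and the ratio of its counts relative to library size was 20.6 (exact 95% interval 7.78 to 77.3). Its size rests on 4 EPS counts, and the log2 fold change was 3.71 without EPS line 2 and 5.46 without EPS line 3. Mtx2, a mitochondrial import gene beyond Hoxd1, had 53.0 ± 3.03 CPM in TPS lines and 44.2 ± 9.19 in EPS lines (SD, n = 3, edgeR adjusted p = 0.33). Lnpk, an endoplasmic reticulum gene on the side of Hoxd13, had 27.7 ± 2.97 and 23.6 ± 5.0 CPM (SD, n = 3, edgeR adjusted p = 0.425). Hoxd3os1 had 21 counts in TPS lines and 8 in EPS lines, and its libraries overlapped. Evx2, a homeobox gene next to Hoxd13, and the microRNA gene Mir10b had no count in any library, and a library of this kind is not made to capture mature microRNAs.

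Values of the HoxB and HoxC clusters were set beside those of HoxD. Of the tested genes, 9 of 9 in HoxB were called higher in TPS cells, against 14.4% of all tested genes, with a median log2 fold change of 2.88. Hoxb3 among them was under the filter's cutoff in every EPS line, so that it could be tested only by being higher in TPS lines. In HoxC 5 of 8 were called higher and 2 lower, where 7.34% of all tested genes were lower, with a median of 1.79. Summed per kilobase of exon, HoxD had 4.44 ± 1.47 CPM per kb in TPS lines and HoxC 11.3 ± 2.45 (SD, n = 3), and HoxB had 13.2, 17.8 and 22.9 in the 3 lines. In EPS lines HoxD had 0.8 ± 0.12 CPM per kb, HoxB 2.8 ± 1.15 and HoxC 8.13 ± 1.08 (SD, n = 3).

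**Figure D5:**
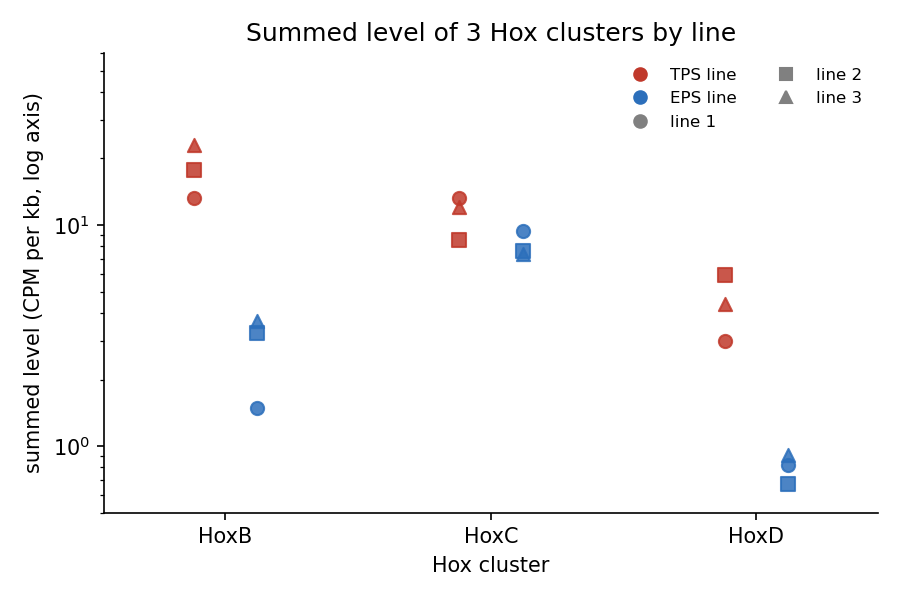
Summed level of the HoxB, HoxC and HoxD clusters (vertical axis, CPM per kb, log axis) in the 3 TPS lines (red) and the 3 EPS lines (blue), with marker shape for the line number. The HoxD points sit below the HoxB and HoxC points of the same line, which says nothing of Hox genes that are not plotted.

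Genes at the same place in different clusters are paralogs, copies of an ancestral gene. For the first place, Hoxb1 had a log2 fold change of 6.26 ± 1.29 SE, beside 2.73 for Hoxd1. The size of the Hoxb1 change rests on 14 EPS counts, with EPS lines 1 to 3 at 0, 0.382 and 0.0284 CPM. For the eighth, Hoxb8 had 3.31 and Hoxc8 2.80, beside 2.38 for Hoxd8, and for the ninth, Hoxa9 had 3.24, Hoxb9 1.78 and Hoxc9 2.18, beside 2.88 for Hoxd9. All of these were called higher in TPS cells by edgeR, though Hoxa9, like Hoxd1, was under the count cutoff in every EPS line. At the last place Hoxb13 rose (log2 2.51 ± 0.562 SE, edgeR adjusted p = 0.0195) and Hoxc13 fell (log2 −1.89 ± 0.426 SE, edgeR adjusted p = 0.0201), while Hoxd13 was not called. Hoxc12 also fell (log2 −3.91 ± 1.09 SE, edgeR adjusted p = 0.0398), though it was under the filter's cutoff in every TPS line and could be tested only by being higher in EPS lines, and its paralog Hoxd12 was not tested in the main comparison. TPS line 2 had the highest value of the TPS lines for Hoxb13 (3.99 CPM, against 0.998 and 2.1) and Hoxc13 (3.88, against 1.52 and 2.0), as for Hoxd13.

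The lists of Cdx genes, retinoid genes and Hox cofactors were higher in TPS cells for part of their members. Both tested Cdx genes, activators of posterior Hox genes, were called higher, with Cdx1 at 69.8 ± 37.4 CPM in TPS lines and 9.12 ± 2.19 in EPS lines (SD, n = 3). Cdx2 had 4.56 ± 4.42 and 0.239 ± 0.276 CPM (SD, n = 3, edgeR adjusted p = 0.0448). It is also on the trophectoderm list below, and nothing is read from the count in so short a list. Of 18 tested retinoid genes 10 were called higher and 0 lower, and for each of these lists the share called higher over all tested genes was 14.4%. Rarg, the receptor that the agonist in the TPS medium binds, had 131 ± 52.5 and 36.6 ± 5.88 CPM (SD, n = 3), and Stra8, a gene induced by retinoic acid, had 62.0 ± 11.6 and 0.246 ± 0.143 CPM. Among HoxD's DNA-binding cofactors of the Pbx, Meis and Pknox families, 5 of 9 were called higher and 0 lower, including Meis2 at 13.6 ± 5.09 against 1.89 ± 0.934 CPM (SD, n = 3).

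Genes of the chromatin systems that hold Hox clusters silent or active are given as counts. Of 31 Polycomb genes 6 were called higher and 4 lower, which is near the 14.4% and 7.34% of all tested genes. Their median log2 fold change was −0.0038, and Ezh2, the Polycomb methyltransferase, fell (log2 −0.51 ± 0.124 SE, edgeR adjusted p = 0.0253). Of 11 genes of the trithorax type and related factors, 0 were called higher and 4 lower, against the same 14.4% and 7.34%, with a median of −0.36, among them Wdr5 (log2 −0.97 ± 0.14 SE, edgeR adjusted p = 0.00489). Both medians are set against −0.0038 over all tested genes.

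Lists for tissues that use HoxD genes or could contaminate the cultures were read in the same way. Of 7 tested limb and posterior partners of HoxD 5 were called higher, including Hand2, a limb transcription factor, at 1.76 ± 0.722 against 0.395 ± 0.118 CPM (SD, n = 3). Of the limb and lateral mesoderm markers 5 of 6 were called higher, and of the primitive endoderm markers 3 of 6. Trophectoderm markers gave 2 of 7, neural markers 2 of 4, and primitive streak and posterior mesoderm markers 1 of 5, and none of these lists held a gene called lower. Over all tested genes 14.4% were called higher, and nothing is read from counts of 1 or 2 in lists this short. The limb and lateral mesoderm list shares Hand2, Tbx4 and Tbx5 with the partners, so the counts of these lists are not independent. It also shares Prrx1 with the fibroblast list, and the part of such cells in the HoxD values was not tested. Trophectoderm markers summed to 144, 602 and 219 CPM in TPS lines 1 to 3 and 156, 178 and 103 CPM in EPS lines 1 to 3, so that the TPS lines had the same order as for HoxD. The limb and posterior partners also had that order, with 41.5, 54.9 and 45.5 CPM in TPS lines. Neural markers had it too, with 3.72, 7.61 and 6.73 CPM in TPS lines. In EPS lines the neural markers, with 2.19, 1.85 and 3.16 CPM, followed the order of HoxD there. The trophectoderm markers and the partners, the latter with 11.2, 16.8 and 21.4 CPM in EPS lines, did not. The limb and lateral mesoderm markers had the reverse order in TPS lines, with 116, 51.2 and 96.0 CPM, as did the primitive endoderm markers, with 62.9, 43.0 and 51.7 CPM. Most of the limb and lateral mesoderm sum was Prrx1, at 79.0 ± 34.8 CPM in TPS lines (SD, n = 3). The order of that sum therefore need not hold for the other markers on the list. The fibroblast list, which also holds Prrx1, had the reverse order too, with 7110, 4180 and 4230 CPM. Primitive streak and posterior mesoderm markers, with 4.97, 35.2 and 43.3 CPM, and the retinoid genes, with 723, 487 and 759 CPM, had neither order. Nor did the Cdx genes (28.8, 85.3 and 111 CPM), the cofactors (168, 211 and 164 CPM) and the Polycomb genes (3520, 4230 and 4480 CPM). The trithorax-type genes had the HoxD order in TPS lines, with 1260, 1310 and 1280 CPM. With so few lines an order can match by chance, and no order was tested.

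The pattern of HoxD over the 6 lines, taken as the mean of the centred log2(CPM + 1) of the 4 tested genes, was highest in TPS line 2 (0.903) and lowest in EPS line 2 (−0.663). Of 14827 other coding genes, those with the most similar values over the 6 lines were Hspa2 (Pearson r 0.998), Klhl23 (0.997), Sox8 (0.996), Disc1 (0.996) and AW822073 (0.995). Klhl23 had 3.27, 6.91 and 5.49 CPM in TPS lines and 1.34, 1.18 and 1.51 CPM in EPS lines. The correlations are descriptions over lines that share the group difference, and many genes reach high values over so few lines.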

How the data were processed

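RNA-seq counts of 12 libraries were used. Per the labels and the study's methods, RNA was enriched with oligo(dT) beads, copied with random primers, made double-stranded with dNTPs, with no strand-marking step named, and sequenced as 2 × 100 bp pairs. The submitters' processing notes name fastp 0.19.7, STAR 2.7.3a and build mm10. The authors deposited whole-number read counts per gene without normalization. The counting tool, annotation release, strand setting and handling of multiply mapped reads are not given in the sources used here, which could affect overlapping genes and close copies.

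Groups, lines and technical replicates came from the labels, and technical replicates were summed per line. Of 55401 gene identifiers, 55141 matched GENCODE M21 (GRCm38) once versions were removed, and symbols and coordinates came from there. Genes were tested with the quasi-likelihood method of edgeR 4.0.16 in R 4.3.3, with TMM and filterByExpr (10 counts at the median line total, or 0.28 CPM, in 3 lines, and 15 in total), TPS against EPS, 3 lines each, with Benjamini-Hochberg adjustment over 17468 genes at 0.05. The standard error is the log2 fold change over the square root of F. CPM is counts over library total times TMM factor. The floor was 3 counts per library (0.156 to 0.239 CPM in EPS, 0.133 to 0.195 in TPS). Exact intervals cover counting error only.

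The study's own methods use DESeq2, which was run as an alternative (DESeq2 1.42.0), with limma 3.58.1 and other filters, scalings and sample sets. All 9 HoxD genes were named. Of the rest, the rule named genes that overlap or lie among them, Evx2 and the flanking genes, at most 3 called genes of highest mean CPM per list, and the 5 most similar genes. Paralogs, Evx2 and genes of the neighbourhood were described beyond it where they stood beside a member. Some results for other genes are not reported here. HoxD and the gene lists were chosen with earlier results of these data known.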

Additional observations from a re-analysis of the deposited data

Results flagged for a closer look

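In each group of 6 libraries the highest or lowest value was compared with its nearest neighbour over the range of the group (Dixon's test), for 16 groups of HoxD values, of which 4 stood apart. For values on a continuous scale chance gives about 1 in 20, and the libraries are technical pairs rather than independent samples. Hoxd13 stood apart in the first technical replicate of EPS line 3, at 1.58 CPM from 25 counts, with the next EPS library at 0.439 CPM. Hoxd3 stood apart in the first technical replicate of TPS line 2, at 0.558 CPM from 10 counts, with the next at 0.0649 CPM. Hoxd12 in the same TPS library was at 0.112 CPM from 2 counts, and Hoxd10 in the second technical replicate of EPS line 2 at 0.0525 CPM from 1 count, with all other libraries of each group at 0. A read or pair of reads in a group otherwise at 0 always stands apart by this measure, so the rate does not apply to these last results.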

How the results depend on the processing

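Hoxd9, Hoxd8 and Hoxd1 stayed higher in TPS cells and past the threshold under all 18 alternatives run for each, with log2 fold changes of 2.54 to 3.20, 2.19 to 2.67 and 2.50 to 2.93. The filter of 1 CPM in 3 lines is no support among these. No EPS line reached 1 CPM for these genes, which passed that filter through TPS lines alone. Hoxd1 was under the main filter's cutoff in every EPS line and every EPS library. Fits with a filter on low counts could therefore test Hoxd1 only by its being higher in TPS cells. Its stability rests on the fit with no such filter, where it also passed the threshold. Hoxd9 was under the cutoff in every EPS library. The same limit applies to Hoxd9 with technical replicate 1 alone, technical replicate 2 alone and the 12 libraries as samples. Over the fits that left out 1 line, the count of HoxD genes called higher was 3 and the count called lower 0 each time. Hoxd13 ranged from 0.97 to 2.53, with adjusted p of 0.0361 to 0.416, and passed edgeR's threshold with the 12 libraries as samples (1.67, adjusted p = 0.0361), with technical replicate 2 alone (2.26, adjusted p = 0.0368) and with EPS line 3 from technical replicate 2 only (2.40, adjusted p = 0.0403), each of which gave 4 HoxD genes called higher. In technical replicate 2 the EPS libraries held 8, 3 and 7 counts of Hoxd13, under the cutoff of 10. In that fit Hoxd13 could be tested only by being higher in TPS cells. With no filter on low counts 4 were called, Hoxd10 being added (edgeR adjusted p = 0.0117), while Hoxd11 (adjusted p = 0.0824), Hoxd3 (0.0587), Hoxd4 (0.347) and Hoxd12 (0.497) were not. Fitted folds of these genes, which the main comparison did not test, are not given. That filter left 10.1% of 32608 genes called higher. Over all genes, 2509 were called higher and 1282 lower. The 12 libraries as samples, which treat technical replicates as independent, called 4067 and 3610, library size alone called 745 lower and moved the median of all genes to a log2 of 0.144, and leaving out 1 line gave 1617 to 2234 higher and 493 to 1047 lower. The cause of these shifts was not tested. With the line number as a replicate block the fit called 1714 higher (9.81%) and 721 lower, with 3 HoxD genes called higher. Same-numbered lines deviated together with correlations of 0.024, −0.116 and 0.0423, so they were not treated as pairs, and no TPS line correlated best with the EPS line of its own number. EPS libraries held 0 to 25 counts of any HoxD gene, which limits what could be detected at this depth.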
